A study of Mus musculus with 6 samples.

Results

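Chromatin accessibility was examined at the genes of 9 RNA-binding proteins that set alternative splicing in skeletal muscle: Rbfox1, Rbfox2, Mbnl1, Mbnl2, Mbnl3, Celf1, Celf2, Rbm20 and Rbm24. Every ATAC-seq peak whose annotated gene is one of these was taken, which gave 280 of the 75134 peaks of the series, at 8 of the 9 genes. Mbnl3 had none. The genes were proposed with the comparison of these same counts between genotypes already known, so the calls below describe the genes and are no independent test of them. ATAC-seq uses a transposase that cuts open chromatin and inserts sequencing adapters, and the count of a peak reports how accessible that stretch of DNA was in the nuclei sampled. The libraries came from nuclei of frozen quadriceps femoris, the large extensor of the thigh. The mice were labelled as Prr14 knockout (Prr14-KO, 3 libraries, replicates 4, 5 and 7) or wild type (Prr14-WT, 3 libraries, replicates 3, 4 and 8). Prr14 encodes a protein of the nuclear lamina that holds heterochromatin at the edge of the nucleus, and the series title ties it to mechanical signalling, the transcription factor MEF2C and the identity of muscle fibres. The sources used here do not give age, sex, strain, the deleted stretch of Prr14 or the cells that lack it. Nor do the labels name an animal for each library, and the p-values therefore reflect only how far these libraries spread, which may be a technical spread.

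Pre-mRNAs of muscle are spliced into different forms in the embryo and the adult, and in fast and slow fibres, and the proteins studied here decide many of these choices. RBFOX proteins bind UGCAUG in introns and favour or block the neighbouring exon depending on the side they bind. MBNL proteins (muscleblind) drive the adult forms and are trapped on repeat RNA in myotonic dystrophy, and CELF proteins bind GU-rich RNA and often act against MBNL on the same exons. RBM20 represses exons of titin, the giant spring of the sarcomere, and RBM24 promotes the inclusion of muscle exons.

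Each library had between 7608514 and 12061822 counts in peaks. The one peak of Prr14 itself, over its promoter, had 62.0 ± 4.71 counts per 1000000 of the library (CPM; mean ± SD, n = 3) in WT and 60.5 ± 9.75 (n = 3) in KO, so it does not separate the genotypes and does not check the labels. Promoter peaks of all 10 skeletal muscle fibre markers were present. Their summed level was 824 to 1335 CPM in WT, with WT replicate 4 the highest, and 947 to 1013 CPM in KO. Named after their values were seen, Myh4, the fast IIb myosin heavy chain (79.2 ± 24.0 CPM in WT, 37.6 ± 4.27 in KO; adjusted p = 3.95e-07), was the 1 marker promoter peak called lower. Cldn5, the endothelial claudin (20.6 ± 4.09 and 33.5 ± 9.49; adjusted p = 0.00594; mean ± SD, n = 3 each), was the 1 called higher, and the part of either cell type in the results was not tested. Of the other cell types, 4 of 6 endothelial markers (27.1 to 44.0 CPM in WT, 36.9 to 53.3 in KO), 5 of 5 fibro-adipogenic (70.3 to 86.0 and 75.7 to 92.0), 4 of 5 smooth muscle (19.96 to 23.5 and 19.6 to 21.9), 3 of 5 satellite cell (28.9 to 37.2 and 31.2 to 38.7), 2 of 3 tenocyte (40.7 to 56.4 and 40.4 to 55.3) and 2 of 4 adipocyte markers (10.9 to 16.1 and 11.5 to 17.9) had a promoter peak. Macrophage and leukocyte markers had 1 of 5 (3.86 to 4.84 CPM in WT, 2.63 to 5.33 in KO), with none for Ptprc, Adgre1, Cd68 and Lyz2, and Schwann cell and neuron markers had 1 of 5 (4.22 to 7.24 and 5.85 to 9.15), with none for Sox10, Snap25 and Rbfox3. WT replicate 4 had the highest level of the 6 libraries in 24.8% of all tested peaks.

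The Rbfox1 and Mbnl1 genes each have a RefSeq start that lies outside every peak and another that lies inside the most accessible peak of the gene. The bases before these 4 starts are shown because annotated transcripts of both genes start both inside and outside the peaks. The 250 bases upstream of each start are given 5′ to 3′ on the plus strand of GRCm38.p6, from RefSeq. The stretches are chr16:5884543-5884792 (far Rbfox1 start, no peak), chr16:7069585-7069834 (internal Rbfox1 start), chr3:60472580-60472829 (first Mbnl1 start, no peak) and chr3:60500929-60501178 (second Mbnl1 start). First and second refer to the Mbnl1 starts that have such a window. The RefSeq span of Mbnl1 begins earlier, at 60472559, so the first window lies inside it. Capitals mark the only match among these 4 windows to any of 6 motifs searched on both strands.
Rbfox1 far start: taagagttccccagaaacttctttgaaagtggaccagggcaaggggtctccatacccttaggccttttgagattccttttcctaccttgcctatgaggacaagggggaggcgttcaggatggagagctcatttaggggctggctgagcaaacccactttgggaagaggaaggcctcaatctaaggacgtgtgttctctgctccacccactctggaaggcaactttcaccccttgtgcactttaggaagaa
Rbfox1 internal start: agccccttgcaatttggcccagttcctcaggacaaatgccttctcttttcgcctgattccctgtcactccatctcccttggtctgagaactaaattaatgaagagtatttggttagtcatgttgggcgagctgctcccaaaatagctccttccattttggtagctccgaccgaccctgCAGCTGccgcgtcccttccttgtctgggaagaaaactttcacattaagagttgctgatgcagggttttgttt
Mbnl1 first start: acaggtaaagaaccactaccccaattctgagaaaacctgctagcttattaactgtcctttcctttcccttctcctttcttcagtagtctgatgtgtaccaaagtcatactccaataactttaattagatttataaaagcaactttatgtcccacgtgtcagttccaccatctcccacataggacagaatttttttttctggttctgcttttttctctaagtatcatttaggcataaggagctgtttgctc
Mbnl1 second start: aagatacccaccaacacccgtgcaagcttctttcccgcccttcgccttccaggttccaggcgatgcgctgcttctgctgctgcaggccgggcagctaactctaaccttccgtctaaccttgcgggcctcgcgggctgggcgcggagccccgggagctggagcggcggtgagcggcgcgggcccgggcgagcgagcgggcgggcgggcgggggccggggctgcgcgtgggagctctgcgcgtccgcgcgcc
The marked CAGCTG, an E box of the kind bound by myogenic bHLH proteins, begins 72 bases before the internal Rbfox1 start. The share of G and C was 51.2% before the far Rbfox1 start and 48.4% before the internal one, and 38% before the first Mbnl1 start against 73.6% before the second. Over 13 RefSeq start windows of 7 of the genes, CAGCTG was found in 1, AGGTCA (a nuclear receptor half-site) in 1 and GGAATG (TEAD) in 1, the latter pair at Celf2. The MEF2 motif, the CArG box of serum response factor and the AP-1 motif TGACTCA were found in 0 of the 13. Among all 32851 windows of this length, 13% held CAGCTG, 14.02% AGGTCA, 12.6% GGAATG, 2.92% the MEF2 motif, 1.47% the CArG box and 4.46% TGACTCA. No window of these genes held more than 1 match, so no match overlapped another. A missing match says only that these letters are not in these windows, and the peaks themselves were not searched.

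Among the 279 tested peaks of these genes, 43 were lower in KO and 1 was higher (edgeR's quasi-likelihood test, Benjamini-Hochberg adjusted p below 0.05 over all 73896 tested peaks), and 235 did not pass. These 43 are 15.4% of the tested peaks of the genes, and the same rule called 4.23% of all tested peaks lower and 2.77% higher; the genes were chosen on this contrast, so nothing is read from that difference. The lower peaks lay at Rbfox1 (21), Mbnl1 (13), Celf2 (5), Mbnl2 (2), Rbfox2 (1) and Rbm24 (1), and the higher one at Rbfox2. At an unadjusted p below 0.05, 86 were lower and 11 higher. The share of all tested peaks below that threshold is not given, here or for the single genes below. Nothing is therefore read from these unadjusted counts. The log2 fold change, KO over WT, was below 0 in 201 of the 279 (51.2% of all tested peaks). Its median was -0.29 over the peaks of these genes and -0.01 over all tested peaks; without WT replicate 4 these medians were -0.15 and 0.02. KO libraries all lay below the WT libraries in 79 of the 279 peaks (11.2% of all tested peaks) and all above them in 9 (9.17%). In bulk tissue, fewer nuclei of one kind and lower accessibility in each nucleus cannot be told apart.

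**Figure D1:**
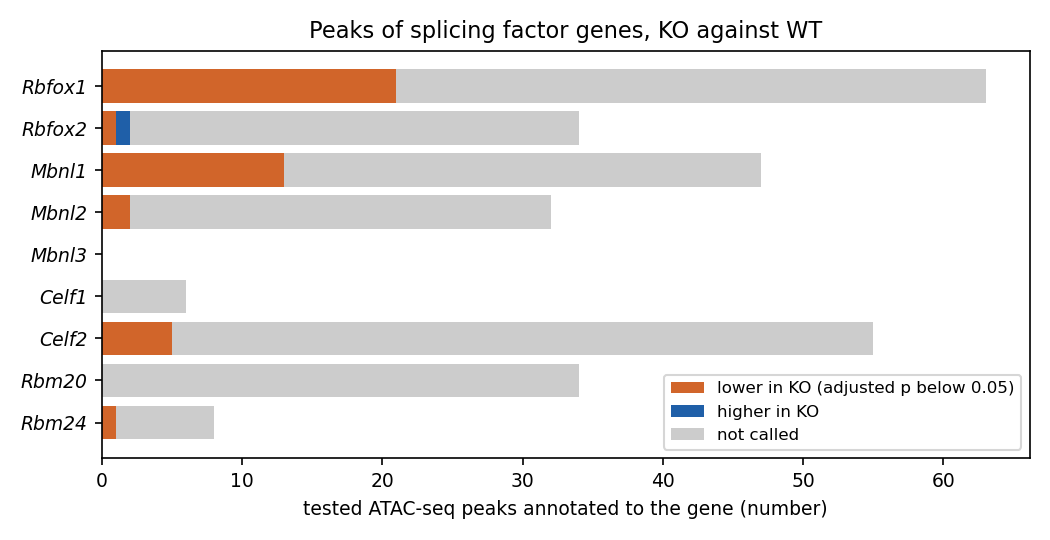
Number of tested ATAC-seq peaks annotated to each of the 9 splicing factor genes, split into peaks lower in KO (orange), higher in KO (blue) and not called (grey). Rbfox1 (21 of 63) and Mbnl1 (13 of 47) hold most of the lower peaks, Rbm20 (34 peaks) and Celf1 (6) hold none, and Mbnl3 has no peak.

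The calls depend on the scaling of the libraries and on single libraries. The authors' own library factors lie between 0.977 and 1.04, while the total counts in peaks differ more widely. With these factors, which raise the median of all peaks to 0.19 on the log2 scale, 6 peaks of these genes were lower (1.02% of all tested peaks) and 0 higher (2.19%) by the same edgeR test, and the authors' deposited table likewise held 6 lower (0.872% of its peaks) and 1 higher (2.44%). Relative to the median of all peaks, the median of these genes was -0.28 with either set of factors. Leaving out WT replicate 4 gave 15 lower peaks, KO replicate 5 gave 24 and KO replicate 7 gave 25. A fit with fewer libraries can call fewer peaks everywhere. The share of all tested peaks called in such fits is not given, here or further below. The member nearest to the threshold on the inside was a peak of Rbm24 (adjusted p = 0.0494), and the nearest outside was a peak of Rbm20 (adjusted p = 0.0513).

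Rbfox1 encodes the RBFOX protein of muscle, heart and brain (ENSMUSG00000008658; chromosome 16, 5884793 to 7412480, plus strand, GRCm38.p6). It is a very long gene of 1528 kb, and its 2 RefSeq starts lie 1185 kb apart. Of its 63 tested peaks, 21 were lower in KO and 0 higher, 55 had a log2 fold change below 0, and the median was -0.58. At an unadjusted p below 0.05, 33 of its peaks were lower and 2 higher. DESeq2 called 17 lower and 0 higher and limma-voom 20 and 0. Leaving out WT replicate 8 gave 22 lower and 2 higher. Without WT replicate 4 the count of lower peaks was 5, without KO replicate 5 it was 13 and without KO replicate 7 it was 12; with the authors' factors it was 2, and the authors' deposited table held 3.

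All 21 lower peaks lay in the stretch from chr16:7005615 to 7396965, which runs from shortly before the internal start to near the end of the gene. This stretch was outlined after the values were seen. It held 47 tested peaks, of which 46 had a log2 fold change below 0, with a median of -0.80. Summed over the stretch, WT replicates 3, 4 and 8 had 514, 698 and 478 CPM, and KO replicates 4, 5 and 7 had 381, 361 and 329 CPM. Every KO library lay below every WT library, and the KO mean was 0.634 of the WT mean; with the authors' factors it was 0.713 and the groups overlapped. The 8 peaks further upstream ran from -0.76 to 1.73 on the log2 scale, with a median of 0.01. They summed to only 18.2 ± 1.81 CPM in WT and 20.8 ± 2.90 in KO (mean ± SD, n = 3 each). The 8 peaks beyond the end of the gene had a median of -0.30 (from -1.36 to 0.25). Their sum was 20.1 ± 6.13 CPM in WT and 17.1 ± 2.05 in KO. None of these 16 outer peaks was called. At such low levels a change is harder to detect, so no boundary is read from the missing calls.

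**Figure D2:**
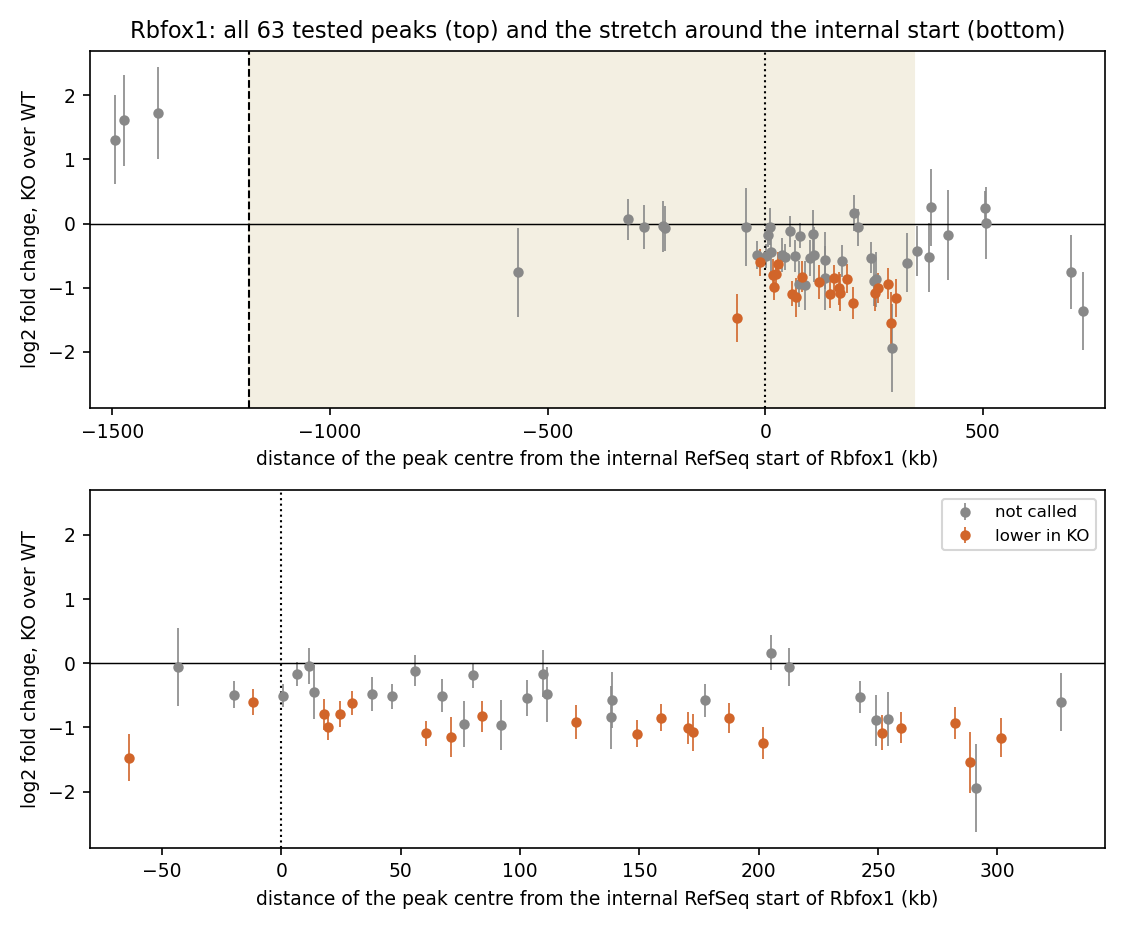
Log2 fold change of KO over WT (points, with its standard error as bars) against the distance in kb of each peak centre from the internal RefSeq start of Rbfox1 (dotted line), for all 63 tested peaks (top; shading is the RefSeq gene span, the dashed line its far start) and for the stretch around and after the internal start (bottom). The 21 peaks lower in KO (orange) lie between 63.8 kb before and 301.6 kb after the internal start.

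The most accessible peak of Rbfox1 covers its internal start (chr16:7069163-7072034), the window printed above with the E box. It had 39.6, 55.0 and 37.0 CPM in WT replicates 3, 4 and 8 and 33.1, 31.1 and 28.7 CPM in KO replicates 4, 5 and 7. The groups did not overlap, yet the log2 fold change of -0.51 (SE 0.18) did not pass (adjusted p = 0.0719); without WT replicate 8 the value was -0.56 (adjusted p = 0.0305), without WT replicate 4 it was -0.28 (adjusted p = 0.426) and without KO replicate 7 it was -0.43 (adjusted p = 0.271). The promoter-class peak closest to an annotated start, 123.5 kb after the internal start (chr16:7192781-7193855), had 9.67, 10.9 and 5.13 CPM in WT and 4.29, 6.001 and 3.39 CPM in KO. It was lower in KO, with a log2 fold change of -0.92 (adjusted p = 0.0134, SE 0.27), although its lowest WT library lay below its highest KO library. That call was lost by DESeq2 (adjusted p = 0.0914), with the authors' factors (0.213), in the authors' deposited table (0.407) and when WT replicate 3 or 4 or KO replicate 4 or 7 was left out.

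The largest falls among the called peaks of Rbfox1 were intronic. The peak 288.4 kb after the internal start (chr16:7357961-7358472) had 4.73, 3.22 and 2.90 CPM in WT and 1.57, 1.07 and 1.10 CPM in KO, a log2 fold change of -1.54 (adjusted p = 0.0218, SE 0.48). The peak 63.8 kb before the start (chr16:7005615-7006478) had 5.66, 5.61 and 4.61 CPM in WT and 2.09, 1.73 and 1.92 CPM in KO, a log2 fold change of -1.47 (adjusted p = 0.00236, SE 0.37). The peak at 201.8 kb (chr16:7271177-7272119) had 11.5, 11.96 and 11.3 CPM in WT and 5.23, 6.001 and 3.48 CPM in KO, a log2 fold change of -1.24 (adjusted p = 6.65e-05, SE 0.25). In all 3 peaks the KO libraries lay below the WT libraries. The second and the third were also called in each of the 6 fits without 1 library; the first was called in 2 of them and not with the authors' factors (adjusted p = 0.0894).

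A pair of stronger Rbfox1 peaks, chosen after their values were seen for their adjusted p, lay at 60.6 and 149.1 kb. The first (chr16:7129197-7131760) had 32.3, 46.7 and 29.0 CPM in WT and 16.6, 17.4 and 16.7 CPM in KO, a log2 fold change of -1.09 (adjusted p = 2.50e-06, SE 0.19). The other (chr16:7218124-7219655) had 20.8, 22.4 and 18.4 CPM in WT and 11.0, 9.62 and 8.33 CPM in KO, a log2 fold change of -1.10 (adjusted p = 2.75e-05, SE 0.21). Both were called in each of the 6 fits without 1 library, and in neither did the groups overlap. The authors' deposited table called 3 Rbfox1 peaks lower, those at 63.8 kb before the start (adjusted p = 0.0395) and at 149.1 kb (0.0430) and 201.8 kb (0.0447) after it.

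Rbfox2, the more widely expressed relative (ENSMUSG00000033565; chromosome 15, 77078990 to 77308434, minus strand), had 34 tested peaks, of which 1 was lower in KO, 1 was higher and 32 did not pass. Their median log2 fold change was -0.07, and 18 were below 0. The lower peak is intronic (chr15:77161512-77163772), with 33.5, 48.9 and 33.3 CPM in WT replicates 3, 4 and 8 and 18.7, 21.3 and 22.4 CPM in KO replicates 4, 5 and 7. Its log2 fold change was -0.89 (adjusted p = 1.68e-04, SE 0.19), the groups did not overlap, and it was called in each of the 6 fits without 1 library, but not with the authors' factors (adjusted p = 0.282).

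The higher Rbfox2 peak belongs to an annotated start within the gene (chr15:77245462-77246926). It had 7.82, 6.90 and 9.08 CPM in WT and 14.1, 14.3 and 11.3 CPM in KO, so every KO library lay above every WT library. Its log2 fold change was 0.74 (adjusted p = 0.0238, SE 0.23), and the authors' deposited table also called it higher (adjusted p = 0.0265). The call was lost without KO replicate 4 or 5, without WT replicate 3 or 4 and with the authors' factors in edgeR (adjusted p = 0.0581). The peak closest to an annotated start (chr15:77152448-77154439) had 27.4 ± 2.30 CPM in WT and 28.4 ± 3.601 in KO (mean ± SD, n = 3 each), and the most accessible one (chr15:77305895-77307543) had 38.4 ± 8.87 and 45.4 ± 8.36. Neither passed (adjusted p = 0.942 and 0.572).

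Mbnl1 encodes the main muscleblind protein of adult muscle (ENSMUSG00000027763; chromosome 3, 60472559 to 60629750, plus strand). Of its 47 tested peaks, 13 were lower in KO and 0 higher, 38 had a log2 fold change below 0, and the median was -0.46. At an unadjusted p below 0.05, 26 were lower and 1 higher; DESeq2 called 9 lower and 0 higher and limma-voom 12 and 0. The count of lower peaks was 6 without WT replicate 4, 7 without KO replicate 5, 3 with the authors' factors and 2 by the authors' deposited calls. Inside the gene span, 10 of 31 peaks were lower; their summed level was 437, 559 and 412 CPM in WT replicates 3, 4 and 8 and 322, 334.9 and 316 CPM in KO replicates 4, 5 and 7. Every KO library lay below every WT library on this scale, and the KO mean was 0.691 of the WT mean.

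**Figure D3:**
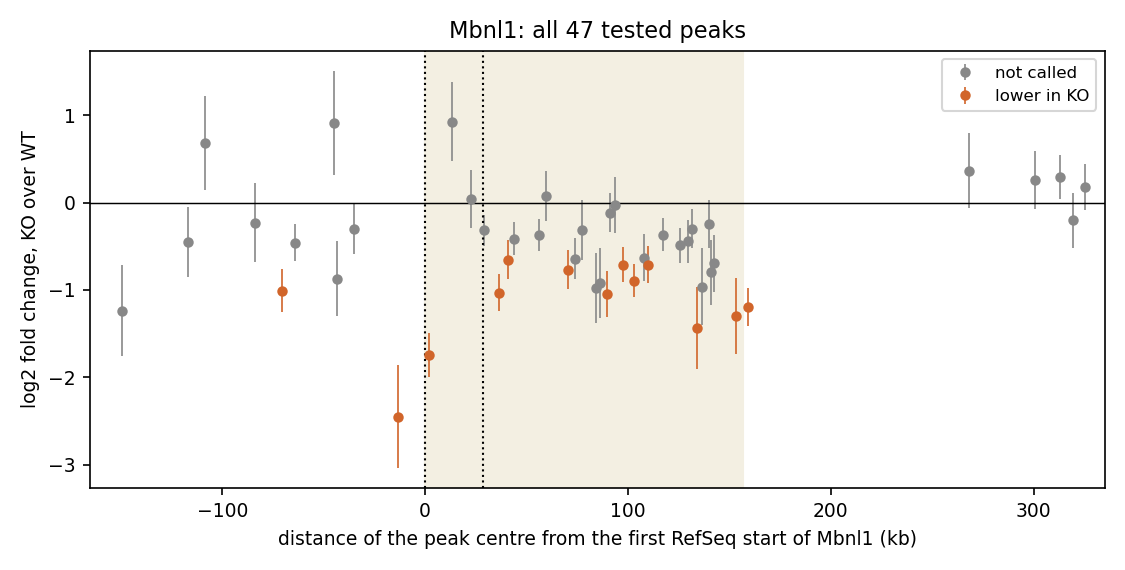
Log2 fold change of KO over WT (points, with its standard error as bars) against the distance in kb of each peak centre from the first Mbnl1 start with a printed window, for all 47 tested peaks. Dotted lines mark that start and the second, 28.3 kb apart, and shading marks the gene span. The 13 peaks lower in KO (orange) lie from 70.3 kb before to 159.3 kb after the first start.

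The Mbnl1 peak with the smallest adjusted p lies 1.9 kb after the first start (chr3:60474098-60475334), next to the window of low G and C content printed above. It had 11.0, 17.9 and 12.6 CPM in WT and 4.18, 3.53 and 4.76 CPM in KO, a log2 fold change of -1.74 (adjusted p = 1.49e-09, SE 0.25). A weak intergenic peak 13.2 kb before that start (chr3:60459448-60459904) had 2.47, 4.14 and 3.16 CPM in WT and 0.836, 0.493 and 0.458 CPM in KO, the largest fall of the 43 lower peaks, with a log2 fold change of -2.45 (adjusted p = 0.00130, SE 0.59). In both peaks the groups did not overlap, and both were called in each of the 6 fits without 1 library. The authors' deposited table called the first of them lower (adjusted p = 8.91e-04).

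The peak over the second Mbnl1 start (chr3:60499555-60503681), the most accessible of the gene, had 63.1, 75.2 and 56.2 CPM in WT and 45.9, 54.7 and 55.6 CPM in KO. Its log2 fold change of -0.32 (SE 0.18) did not pass (adjusted p = 0.366), although the highest KO library lay just below the lowest WT library. The promoter-class peak closest to an annotated start (chr3:60527672-60530020) had 46.8 ± 14.7 CPM in WT and 36.2 ± 3.76 in KO (mean ± SD, n = 3 each) and did not pass either (adjusted p = 0.257).

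Within the introns, the Mbnl1 peak at 134.2 kb (chr3:60606942-60607202) had 3.40, 4.14 and 3.29 CPM in WT and 1.78, 1.07 and 1.19 CPM in KO, a log2 fold change of -1.43 (adjusted p = 0.0349); it was called in 1 of the 6 fits without 1 library and not with the authors' factors (adjusted p = 0.127). Chosen after their values were seen, the peak at 102.9 kb (chr3:60574305-60577077) and the one at 159.3 kb, just past the end of the gene (chr3:60630922-60633249), were called in each of those 6 fits. The first had 39.3, 54.7 and 40.5 CPM in WT and 28.5, 22.8 and 21.2 CPM in KO, with a log2 fold change of -0.89 (adjusted p = 1.12e-04). The other had 15.8, 22.9 and 18.2 CPM in WT and 8.57, 9.37 and 6.87 CPM in KO, with a log2 fold change of -1.20 (adjusted p = 5.79e-06; 0.0361 in the authors' deposited table). None of these 3 peaks had overlapping groups.

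Mbnl2, whose protein shares many targets with MBNL1 (ENSMUSG00000022139; chromosome 14, 120275652 to 120431698, plus strand), had 32 tested peaks with a median log2 fold change of -0.26. Of these, 2 were lower in KO, 0 were higher, and 7 were lower and 1 higher at an unadjusted p below 0.05; DESeq2 called 1 lower and 0 higher. An intergenic peak upstream (chr14:120267380-120267771) had 4.84, 4.05 and 5.002 CPM in WT and 1.99, 1.97 and 1.92 CPM in KO, a log2 fold change of -1.23 (adjusted p = 0.0257). An intronic peak (chr14:120365176-120365469), which also lies over the RefSeq gene Gm26679, had 5.86, 9.11 and 4.21 CPM in WT and 1.99, 4.11 and 2.84 CPM in KO, a log2 fold change of -1.10 (adjusted p = 0.00979). Both calls are weakly held: 0 Mbnl2 peaks were lower when KO replicate 4 or KO replicate 7 was left out or the authors' factors were used. The peak at its first start, the most accessible of the gene (chr14:120275067-120279165), had 103 ± 12.02 CPM in WT and 83.4 ± 2.18 in KO, and the peak closest to an annotated start (chr14:120378119-120380057) had 26.4 ± 1.59 and 21.4 ± 3.84 (mean ± SD, n = 3 each). Neither passed (adjusted p = 0.367 and 0.467), and they also lie over the RefSeq genes Gm52122 and Gm26679. For Mbnl3, the muscleblind gene linked to muscle precursor cells, no peak overlapped the RefSeq span (chromosome X, 51113494 to 51205990) or the 3 kb around it, while chromosome X held 1106 peaks.

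Among the CELF genes, Celf1, whose protein is raised in myotonic dystrophy muscle (ENSMUSG00000005506; chromosome 2, 90940259 to 91019497), had 6 tested peaks. By edgeR 0 of them were called at the adjusted threshold and 0 at an unadjusted p below 0.05, and DESeq2 and limma-voom called 0. Its promoter peak (chr2:90939936-90941515) had 28.1, 21.1 and 21.5 CPM in WT and 22.4, 22.4 and 26.5 CPM in KO, with overlapping groups and a log2 fold change of 0.01 (adjusted p = 0.990, SE 0.19).

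Celf2 (ENSMUSG00000002107; chromosome 2, 6539694 to 7396341, minus strand) is longer, and 55 of its 56 peaks were tested. Of these, 5 were lower in KO, all of them intronic, 0 were higher, and the median log2 fold change was -0.36 (-0.11 without WT replicate 3). The count of lower peaks was 3 by DESeq2 and without KO replicate 7, 2 without WT replicate 4 or KO replicate 5, and 1 with the authors' factors. At an unadjusted p below 0.05, 13 were lower and 0 higher, and DESeq2 and limma-voom called 0 higher. The strongest fall was at chr2:6950547-6951283, with 11.3, 16.6 and 9.08 CPM in WT and 3.14, 4.52 and 3.94 CPM in KO. There the groups did not overlap, the log2 fold change was -1.67 (adjusted p = 2.49e-08, SE 0.26), and the peak was called in each of the 6 fits without 1 library and in the authors' deposited table (adjusted p = 0.00596).

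The next Celf2 peaks by size were smaller. The peak at chr2:6579562-6580758 had 11.2, 10.03 and 9.61 CPM in WT and 6.06, 5.01 and 3.11 CPM in KO, a log2 fold change of -1.13 (adjusted p = 6.49e-04). At chr2:7106954-7107594 the values were 5.76, 7.45 and 5.002 CPM in WT and 4.29, 2.38 and 2.20 CPM in KO, a log2 fold change of -1.06 (adjusted p = 0.0183). Neither peak had overlapping groups. Both calls were lost with the authors' factors (adjusted p = 0.0661 for the first and 0.145 for the second) and in the authors' deposited table (0.0945 and 0.232). The second was also lost by DESeq2 (adjusted p = 0.0622) and when WT replicate 3 or 4 or KO replicate 5 or 7 was left out. The most accessible Celf2 peak, over a RefSeq start (chr2:6720812-6722251), had 18.5 ± 0.308 CPM in WT and 19.5 ± 1.65 in KO, and the one nearest to its start (chr2:6871409-6872430) had 10.9 ± 0.318 and 9.67 ± 1.81 (mean ± SD, n = 3 each). Neither of these passed (adjusted p = 0.918 and 0.799).

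Rbm20, the titin splicing repressor (ENSMUSG00000043639; chromosome 19, 53660989 to 53867083, plus strand), had 34 tested peaks, of which 0 were called by edgeR with TMM and the default filter. At an unadjusted p below 0.05, 3 were lower and 3 higher. DESeq2 called 1 higher and limma-voom 0; without WT replicate 4, 2 were higher, and without WT replicate 8, 2 were lower. Its median log2 fold change was 0.00, with 17 peaks below 0. The most accessible peak, in an exon (chr19:53850075-53853026), had 63.0, 83.9 and 53.7 CPM in WT and 69.7, 65.1 and 63.0 CPM in KO, with every KO library inside the WT range and a log2 fold change of -0.02 (adjusted p = 0.975, SE 0.18). The promoter peak (chr19:53676281-53678160) had 42.5, 39.5 and 20.01 CPM in WT and 31.8, 37.3 and 33.5 CPM in KO. There too the KO libraries fell within the WT range (adjusted p = 0.998).

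Rbm24, which is needed for muscle-specific exons of the sarcomere (ENSMUSG00000038132; chromosome 13, 46418102 to 46431099, plus strand), is a short gene with 8 tested peaks. Only an intergenic peak past its end (chr13:46445796-46446338) was lower, with 7.72, 6.90 and 7.77 CPM in WT and 4.08, 4.60 and 3.94 CPM in KO, a log2 fold change of -0.82 (adjusted p = 0.0494, SE 0.28). The groups did not overlap, but the call was lost under each alternative scaling, test and filter and without any one library. Its promoter peak (chr13:46417983-46420262) had 34.8 ± 5.74 CPM in WT and 32.5 ± 3.05 in KO, and its most accessible peak, upstream of the gene (chr13:46412143-46414448), had 49.9 ± 14.1 and 38.8 ± 2.73 (mean ± SD, n = 3 each). Neither passed (adjusted p = 0.871 and 0.262).

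**Figure D4:**
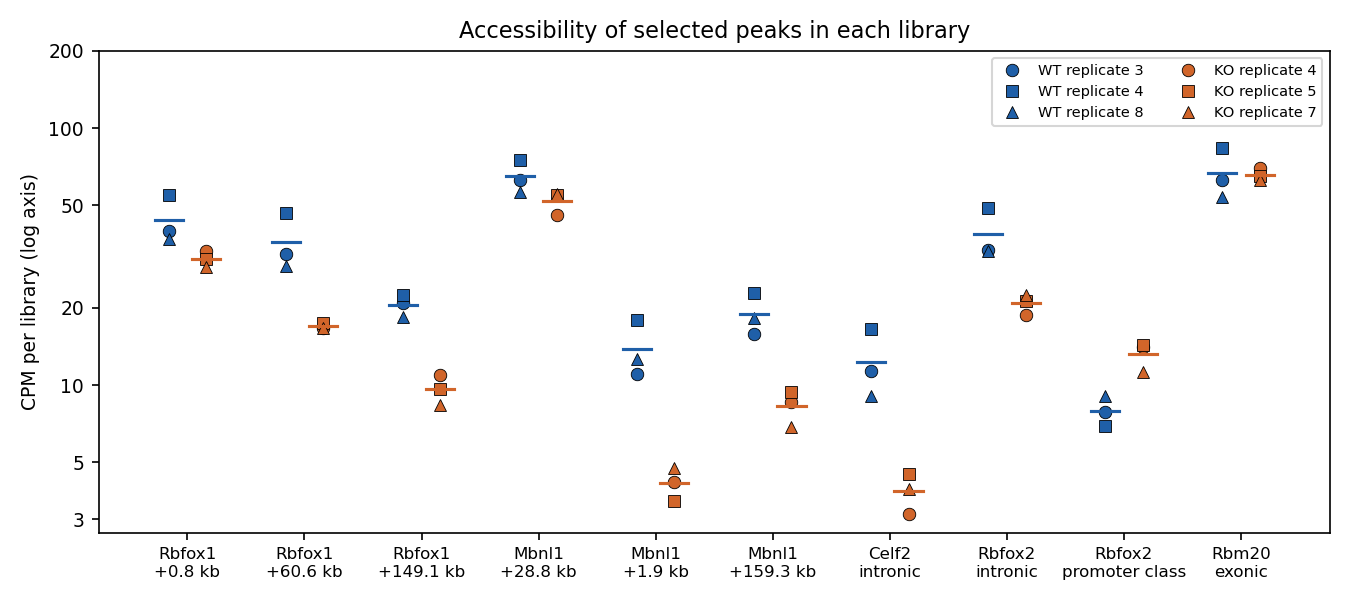
Accessibility (CPM, log axis) of 10 peaks in each of the 6 libraries, WT in blue and KO in orange, with lines at the group means; distances are from the internal Rbfox1 start and the first Mbnl1 start, and symbols tell the replicates apart. Each peak was picked as the most accessible of its gene or for its small adjusted p among the called peaks. The KO libraries lie below the WT libraries in 8 of the peaks, those of Rbfox1, Mbnl1 and Celf2 and the intronic one of Rbfox2. They lie above the WT libraries in the promoter-class peak of Rbfox2, and within their range at Rbm20. Over all tested peaks these shares are 11.2% below and 9.17% above, and for peaks picked as called the separation is largely built in.

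Summed over all its tested peaks, Rbfox1 had 550, 731 and 525 CPM in WT replicates 3, 4 and 8 and 423, 394 and 368 CPM in KO replicates 4, 5 and 7. For Mbnl1 the sums were 527, 662 and 511 CPM in WT and 386, 406 and 396 CPM in KO, and for Celf2 327, 317 and 298 CPM in WT and 252, 248.9 and 247 CPM in KO. In these 3 genes every KO library lay below every WT library, also with median-ratio factors or total counts as the scale. The genes were chosen on this contrast, and the share of all genes whose sums separate in this way is not given. Nothing is therefore read from the separation. With the authors' factors the groups overlapped in all 3, and the KO mean was 0.740 of the WT mean for Rbfox1, 0.796 for Mbnl1 and 0.909 for Celf2. On the TMM scale the groups overlapped for Rbfox2 (376 ± 20.7 CPM in WT and 365 ± 17.7 in KO), Mbnl2 (609 ± 88.4 and 521 ± 25.1), Celf1 (67.3 ± 6.11 and 66.9 ± 3.64), Rbm20 (730 ± 152 and 738 ± 58.9) and Rbm24 (140 ± 28.9 and 123 ± 5.81; mean ± SD, n = 3 each).

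The ratio of the summed level of other peaks to that of promoter-class peaks does not depend on how the libraries are scaled. For Rbfox1 it was 8.68, 8.01 and 8.82 in WT and 8.29, 8.59 and 8.66 in KO, with the KO mean at 0.651 of the WT mean in promoter-class peaks and 0.657 in other peaks. At Celf2 the ratio was 6.58, 5.89 and 5.85 in WT and 5.34, 4.77 and 4.08 in KO, with no overlap; its promoter-class peaks summed to 44.2 ± 1.59 CPM in WT and 43.8 ± 4.48 in KO and its other peaks to 270 ± 14.8 and 205 ± 6.83 (mean ± SD, n = 3 each). Rbfox2 had ratios of 2.90, 3.53 and 3.31 in WT and 2.55, 2.77 and 2.48 in KO. Here the promoter-class sum was higher in every KO library (88.7 ± 4.95 CPM in WT, 101 ± 2.86 in KO), while the sums of other peaks overlapped (287 ± 21.2 and 263 ± 16.5). At Mbnl1 the ratio was 2.62, 2.54 and 2.94 in WT and 2.53, 2.39 and 2.45 in KO, a small gap between the groups. The ratios of Mbnl2, Celf1, Rbm20 and Rbm24 overlapped. The share of all genes whose ratios separate is not given either, so these gaps are a description only.

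**Figure D5:**
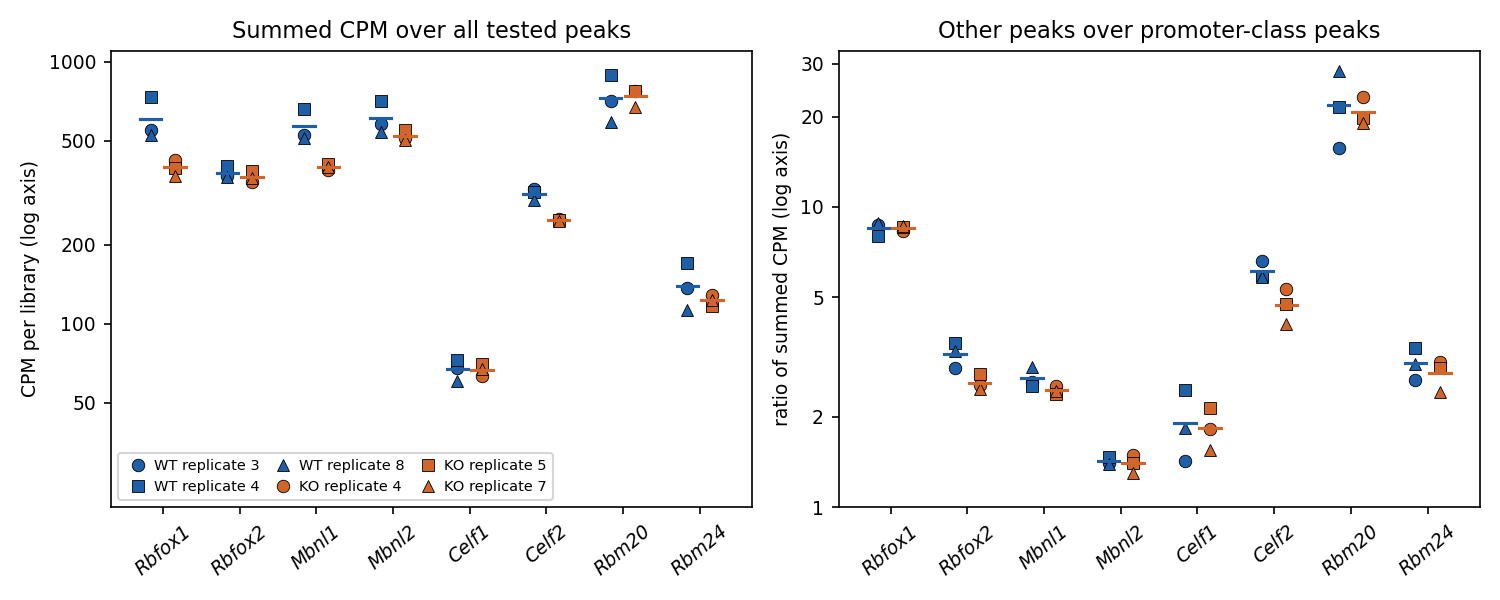
Left, summed CPM of all tested peaks of each gene in each library (log axis); right, the ratio of the summed CPM of other peaks to that of promoter-class peaks (log axis), with lines at the group means, WT in blue and KO in orange. The sums of Rbfox1, Mbnl1 and Celf2 are lower in every KO library on this TMM scale (the groups overlap with the authors' factors), and the ratio is lower in every KO library at Celf2, Rbfox2 and Mbnl1 but not at Rbfox1.

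By class of region, 35 of 193 intronic peaks of these genes were lower in KO (5.2% of all tested intronic peaks were lower), 5 of 52 intergenic peaks (4.94%) and 3 of 26 promoter-class peaks (1.49%), the last being 2 peaks of Rbfox1 and 1 of Mbnl1. The median log2 fold change was -0.13 over the promoter-class peaks of these genes and -0.30 over their other peaks, beside 0.06 and -0.05 over all tested peaks of those classes. The 43 lower peaks had a median width of 957 bases, against 763 for the tested peaks of the genes and 743 for all tested peaks. Their median WT level was 11.6 CPM, against 6.12 CPM in the peaks of these genes that were not called. The total count of a tested peak over the 6 libraries ran from 62 to 5677, with a median of 378.

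The same library was the highest in most of the lower peaks. WT replicate 4 was the highest of the 6 libraries in 38 of the 43 (24.8% of all tested peaks), WT replicate 3 in 3 and WT replicate 8 in 2. Peaks called lower in KO tend by that choice to have a WT library highest. WT replicate 4 also had the highest sum of muscle fibre promoter peaks. Its part in these calls was not tested. Without it, the median log2 fold change was -0.50 for Rbfox1, -0.36 for Mbnl1 and -0.25 for Celf2 (-0.11 without WT replicate 3 instead). Without WT replicate 4 the median was -0.05 for Mbnl2, -0.04 for Rbm24 (-0.17 with all 6 libraries), 0.03 for Rbfox2, 0.08 for Celf1 and 0.24 for Rbm20. KO libraries all lay below WT libraries in 40 of the 43 peaks (11.2% of all tested peaks). The 43 were picked as lower in KO, so such a separation is largely built in and nothing is read from it. Of the 43, 13 were called in each of the 6 fits without 1 library, and 12 in at most 2 of them. The log2 fold changes of the 43 ran from -2.45 to -0.60.

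Many genes with many peaks held a lower one, 779 of the 1861 with at least 10 tested peaks. Rbfox1 (21 of 63) was 1 of 3 genes with at least 21 lower peaks, beside Mylk4 (21 of 28) and Pik3r1 (21 of 61). Genes with fewer lower peaks than these but more than Mbnl1 (13 of 47) were Tbl1xr1 (18 of 67), Neb (17 of 55), Pde4dip (17 of 32) and Trdn (16 of 48). By share of their peaks, 46 of the 1861 genes, Rbfox1 included, had at least its share lower, and 77 had at least that of Mbnl1, 435 that of Celf2 and 606 that of Mbnl2. The genes whose summed level ran most like that of Rbfox1 over the 6 libraries (Pearson correlation of log2 sums, over 1860 genes compared, libraries of both genotypes together) were Man2a1 (r = 0.998), Pfn2 (0.998) and Tbc1d19 (0.995), each with 3 lower peaks. In the same measure Mbnl1 had r = 0.975, Mbnl2 0.900, Celf2 0.896, Rbfox2 0.573 and Rbm20 0.357. The 6 points share their libraries, scaling and split by genotype, so these values are a description of likeness and nothing more.

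Other splicing regulators held as many lower as higher peaks. A list of 58 (SR proteins, hnRNPs, PTB, NOVA, KHDRBS and further RBM and CELF genes) held 316 tested peaks, of which 8 were lower in KO, 8 higher and 300 not called, with a median log2 fold change of 0.03; that is 2.53% in each direction, against 4.23% lower and 2.77% higher over all tested peaks. Ptbp2, the neural PTB protein, had 2 lower peaks, the stronger of them intergenic, at -132799 bases from the annotated start. That peak had 16.3, 18.8 and 13.8 CPM in WT and 3.66, 3.62 and 4.49 CPM in KO (log2 fold change -2.06, adjusted p = 1.32e-13). Elavl1 had 2 lower peaks and Nova1 and Rbm5 had 1 each. Raver1, a PTB partner, had 1 higher peak with 6.79, 10.1 and 5.79 CPM in WT and 19.6, 20.1 and 18.9 CPM in KO (log2 fold change 1.35, adjusted p = 2.56e-07). Qk, the quaking protein of muscle and glia, and Raver2 had 2 higher peaks each and Srsf3 had 1, while Celf4 and Msi2 each had 1 lower and 1 higher. Across the alternatives the lower count of this list ran from 2 to 9 and the higher count from 4 to 10, with 4 lower and 7 higher under the authors' factors (1.02% and 2.19% of all tested peaks).

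A further list held genes whose pre-mRNAs are known targets of splicing regulation in muscle. Of 732 tested peaks at 41 such genes, 88 were lower in KO (12.02%), 7 were higher (0.956%) and 637 did not pass, with a median log2 fold change of -0.21. Over all tested peaks 4.23% were lower and 2.77% higher; both lists were chosen with results of these data known, so nothing is read from these differences. The lower peaks lay in 16 of the genes and the higher in 6. The largest counts were at Neb, the nebulin gene (17 of 55 lower), Trdn, triadin of the calcium release unit (16 of 48), Pdlim5 (10 of 32), Mef2c (8 of 43) and Dtna (8 of 24). Ttn, the titin gene, had 6 of 62 lower, and Dmd, the dystrophin gene, had 4 of 12. The intronic Pdlim5 peak with the smallest adjusted p of the list had 16.8, 23.4 and 11.3 CPM in WT and 5.12, 4.77 and 4.49 CPM in KO (log2 fold change -1.85, adjusted p = 7.53e-12). The intergenic Mef2c peak, at -438937 bases from the annotated start, had 14.6, 17.3 and 14.5 CPM in WT and 5.33, 2.71 and 4.94 CPM in KO (log2 fold change -1.85, adjusted p = 4.37e-11). Lmo7 had 3 of 23 lower, Camk2d 3 of 28 and Mef2a 1 of 20, and Kif13a had 1 of 17 higher. Without WT replicate 4, 27 peaks of this list were lower and 14 higher, without KO replicate 5, 31 and 2, and without KO replicate 7, 45 and 8; with the authors' factors 18 were lower and 5 higher, and the authors' deposited table called 9 lower and 4 higher. These peaks report accessibility at sites annotated to the target genes, some of them far from the gene, and carry no measure of splicing.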

How the data were processed

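ATAC-seq libraries of mouse quadriceps femoris (3 Prr14-WT, 3 Prr14-KO) were compared over the authors' common peak list. Per the submitters' processing notes, the tools were BWA, MACS2, DESeq2 1.6.3, Trimmomatic, bedtools and deepTools on build GRCm38; the sources used here do not say in which order, nor how reads were shifted, filtered and counted or peaks merged. The authors deposited whole-number counts per peak, a normalized signal (the count over a single factor for each library, with a relative spread of the quotient of at most 4.996e-15), a log2 fold change that sets KO over WT, raw and adjusted p-values, a score per peak (not used) and the distance from the annotated start. Gene and class of each peak are as deposited; "promoter class" means within 3 kb of an annotated start.

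The deposited counts were tested with edgeR 4.0.16 in R 4.3.3 (glmQLFit, glmQLFTest, two-sided, TMM, filterByExpr with a minimum count of 10 and a minimum total of 15), which kept 73896 peaks. The common biological coefficient of variation was 0.201. A peak was called at a Benjamini-Hochberg adjusted p below 0.05 over all tested peaks. CPM are counts per 1000000 scaled with TMM, and the SE given with log2 values is the standard error, taken as the absolute value over the root of F. The test was tried first on simulated data. Alternatives were the authors' factors, median-ratio factors, total counts, DESeq2 1.42.0, limma-voom 3.58.1, no filter, a filter of 30 counts in 3 libraries, the authors' deposited calls, gene spans from RefSeq, promoter peaks within 1 kb, and leaving out each library. Named were, per gene, the promoter-class peak nearest to a start, the most accessible peak and up to 3 called peaks with the lowest and 3 with the highest log2 fold change, with up to 10 genes per further list by smallest adjusted p. Ttn was named in addition, after its values were seen. The genes and lists were chosen with earlier results of these data known. The counts of the lists of other splicing regulators and of muscle splicing targets under the alternatives were added after seeing the data. No genome was used, so sequences are the start windows of RefSeq (GRCm38.p6). Precision is limited by counting error and by 3 libraries per group. A few items are not reported here.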

Additional observations from a re-analysis of the deposited data

How the results depend on the processing

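Of the peaks of the splicing factor genes, 43 were called lower and 1 higher. Under the authors' library factors 6 were lower and 0 higher, and 6 were lower by the authors' deposited calls, while 40 were lower with median-ratio factors and 38 with total counts. The count of lower peaks was 31 by DESeq2, 40 by limma-voom and 39 over peaks within the RefSeq spans and 3 kb around them. The higher count was 2 by DESeq2, with median-ratio factors, with total counts, with no filter and with the filter of 30 counts in 3 libraries. Leaving out 1 library gave 15 to 43 lower peaks, with 15 when WT replicate 4 was left out, 24 when KO replicate 5 was and 25 when KO replicate 7 was, and 0 to 4 higher. Of the values of named peaks under alternatives, 326 kept their direction and their side of the threshold, 64 lost the call in the same direction, 1 gained it and 18 changed sign.

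The changes of sign were all in peaks that were never called. On leaving out 1 library, the Celf1 promoter peak ran from -0.050 to 0.18 (-0.036 without WT replicate 4, -0.0034 without WT replicate 8), that of Rbfox2 from -0.040 to 0.16, that of Rbm20 from -0.21 to 0.21 (-0.026 without KO replicate 5), that of Rbm24 from -0.18 to 0.014 and the exonic Rbm20 peak from -0.10 to 0.20 (0.022 without KO replicate 5, 0.033 without KO replicate 7). The exonic Rbm20 peak was at 0.15 with the authors' factors and in the authors' deposited table, 0.0059 with no filter and 0.030 with total counts. With the authors' factors and in their table the Celf2 promoter peak was at 0.027 and that of Rbm24 at 0.081. The cause of these changes was not tested. No paired analysis was possible because the groups share only 1 replicate number. With 3 libraries per group and a median of 378 counts per tested peak of these genes, small differences at weak peaks could not be detected.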
